A study of Mus musculus with 6 samples.

Results

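The enzymes that oxidize, hydrolyze, and conjugate drugs, steroids, and fatty acids were followed through the cells of 6 mouse kidneys. Members were the genes whose symbols place them in 5 families: cytochromes P450 of families 1 to 3 (Cyp), UDP-glycosyltransferases (Ugt), glutathione S-transferases of the alpha, mu, omega, pi, and theta classes (Gst), sulfotransferases (Sult), and carboxylesterases (Ces). A gene had to hold at least 50 unique molecular identifiers (UMIs, each marking 1 captured RNA molecule) in total, and pseudogenes were left out. Of 143 genes with such symbols among 31537 listed genes, 70 were members, namely 23 Cyp, 12 Ugt, 18 Gst, 8 Sult, and 9 Ces genes. Members were thus chosen by their total UMI count, so their overall level is a description only: it ran from 51 UMIs for Sult5a1 to 115387 for Sult1d1, followed by Cyp2j5 with 93738, Ugt2b38 with 75112, Cyp2e1 with 67371, and Gstt2 with 63991. Cyp3a13 with 81 UMIs and Ugt1a2 with 74 were just inside the limit, and Ces1h with 37 and Ugt1a6b with 36 were just outside.

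The study transplanted BALB/c kidneys into B6 (C57BL/6) mice and asked how rejecting and tolerized grafts differ. Naive kidneys were untransplanted B6 kidneys of male mice aged 10 to 12 weeks. Rejecting kidneys were BALB/c kidneys, labelled male and 6 to 7 weeks old, placed in male B6 recipients whose own kidneys had both been removed, and tolerized kidneys were the same with intravenous infusions into the recipient of BALB/c splenocytes treated with ethylenecarbodiimide, given before and 1 day after transplantation. Grafts were collected on d15, and each group held 2 kidneys with 1 droplet-based library each. No untransplanted BALB/c kidney and no B6 graft was among these samples, so strain, age, and transplantation cannot be told apart in any comparison with the naive kidneys, and reads of BALB/c kidneys were aligned to a reference of the C57BL/6 strain. The labels number the kidneys without naming the mice, so that p values measure only the spread between these kidneys.

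In such detoxification, Cyp enzymes and carboxylesterases first expose a reactive group on a foreign or endogenous compound, and Ugt, Sult, and Gst enzymes then attach a sugar, a sulfate, or glutathione, which makes the product easier to excrete. Liver is the main site, and within the kidney the proximal tubule, which takes up organic ions from blood, is known to carry much of this activity. Several members also act on the body's own compounds: Cyp2j5 and Cyp2c23 make epoxides of arachidonic acid, Cyp2r1 hydroxylates vitamin D, and Ugt8a adds galactose to ceramide.

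The 6 libraries held 8532 to 13378 barcodes and 34874702 to 96803926 UMIs, and 45667 cells remained after filtering. Clusters were named from marker genes, with members left out of the genes used for clustering, and 18405 cells formed 12 proximal tubule-like clusters (1101 to 4841 cells per kidney). Naive and graft cells lay almost wholly in different clusters: 10 of 9770 graft cells were in the 5 mostly naive and 5 of 8635 naive cells in the 7 mostly graft proximal tubule-like clusters. At a coarser clustering (resolution 0.8), the S3-like cluster held 150 naive and 165 graft cells, and every other proximal tubule-like cluster held at most 4 cells of the rarer kind. The summed level of 12 proximal tubule markers lay between 17943 and 21095 raw CPM (the UMIs of a gene in the summed cells of a class, scaled to a common total) in all 6 kidneys. Over all kept cells, leukocytes included, mitochondrial UMIs had a median share of 25.5% and 24.9% in naive kidneys and 5.38% to 13.7% in the grafts. In proximal tubule-like cells the medians were 25.4% and 24.8% in naive kidneys and 15% to 21% in the grafts. No kept naive cell had under 1342 UMIs whereas graft cells reached down to 500, and the naive and graft matrices listed partly different genes. The naive libraries shared 111 barcodes, and other pairs of libraries shared 0 to 35.

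In droplet data, RNA free in the suspension is counted in every cell, and leukocytes, which are not known to make most of these enzymes, were taken to give its level. Summed over all members, leukocytes held 1023 and 1279 raw CPM in naive kidneys against 305 and 257 in rejecting and 267 and 416 in tolerized grafts, beside 5181 to 6901 in proximal tubule-like cells. The naive level was thus above that of every graft, and the leukocyte level is given below as the background for classes in which a member is low. Within a class, less RNA per cell and fewer cells that make it cannot be told apart in these sums.

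Among the 4 tubular classes, most members were highest in the proximal tubule. By mean raw CPM over the 6 kidneys, 51 of 70 were highest in proximal tubule-like cells, 10 in collecting duct-like cells, 6 in distal convoluted and connecting tubule-like cells, and 3 in loop of Henle-like cells. Of the 41 members that reached 10 raw CPM in a tubular class, 30 were highest in the proximal tubule, and for 34 the highest class was the same in each of the 6 kidneys. The other 29 of the 70 stayed under 10 raw CPM in each of the 4 classes. Over 14 named classes, leukocytes, endothelium, stroma, and injured tubule included, 32 of 70 members were highest in proximal tubule-like cells, 24 of them among those 41, and 49 of 70 had over 50% of their UMIs in named classes there. Naive kidneys held 0 injured tubule-like and 0 neutrophil-like cells, so the means of those classes cover the grafts alone. A member low in naive kidneys could thus be highest there. Some highest classes also rested on few UMIs, as for Ugt1a5 with 1 UMI in neutrophil-like cells. These levels are a description, without a test.

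**Figure D1:**
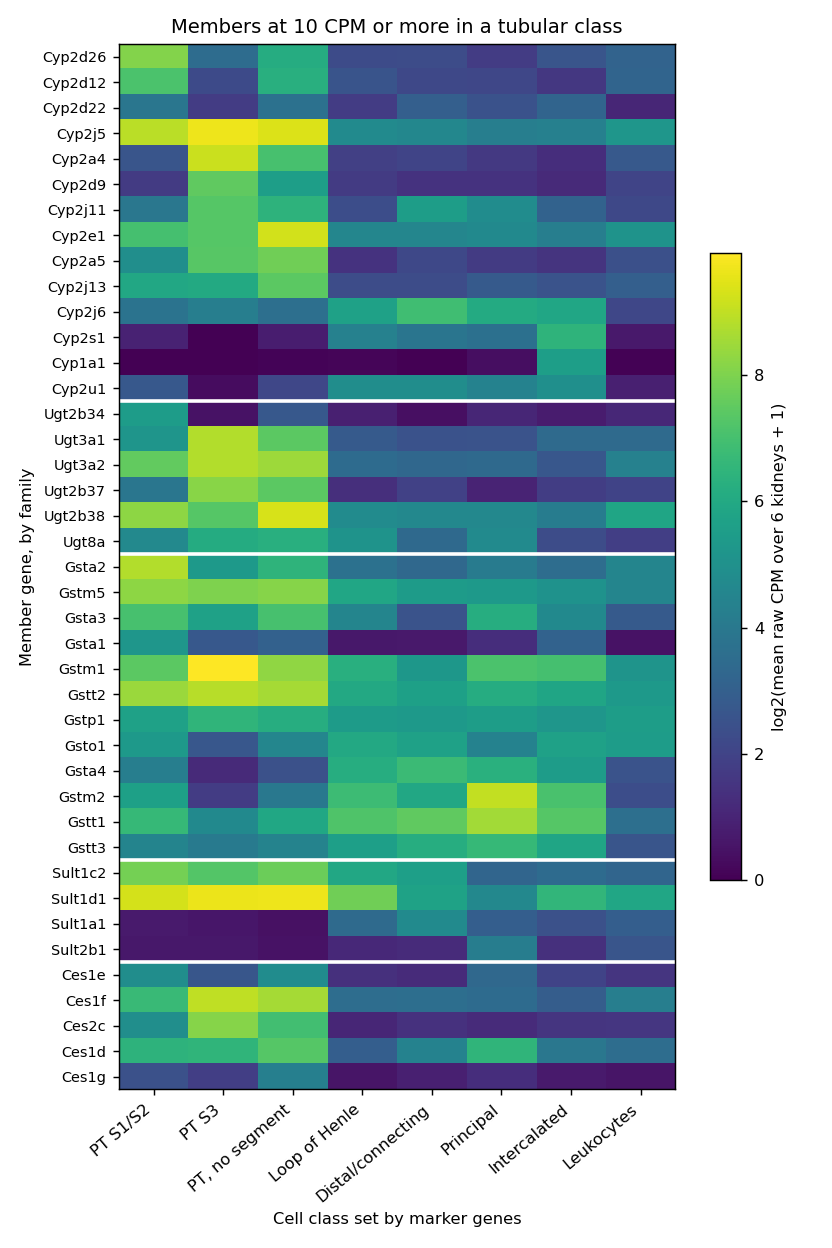
Mean raw CPM over the 6 kidneys, as log2(CPM + 1), of the 41 members that reached 10 CPM in a tubular class. Columns are cell classes set by marker genes, with leukocytes at the right, rows are members by family, and brighter cells of the map are higher. Cyp2a4, Cyp2d9, and Ugt2b37 are bright in S3 and dark in S1/S2, whereas Cyp2d26, Cyp2d12, and Gsta2 show the opposite, and Gstm2, Gstt1, and Gsta4 are brightest beyond the proximal tubule.

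Within the proximal tubule, members divided the S1/S2 segments, next to the glomerulus, from the S3 segment, the straight last part. Of 36 members with at least 10 raw CPM in either, 9 were over 2-fold higher in S1/S2-like cells and 8 were over 2-fold higher in S3-like cells in each of the 6 kidneys. The S3 side held Gstm1 with a mean of 976 against 171 raw CPM in S1/S2, Ugt3a1 with 437 against 34.9, Ugt2b37 with 289.7 against 13.9, and Cyp2d9, a steroid hydroxylase, with 179 against 2.28. Ugt3a2, Cyp2a4, Cyp2j11, and Ces2b completed it. On the S1/S2 side were Gsta2 with 438 against 40.4 raw CPM, Cyp2d26 with 274 against 10.4, Cyp2d12 with 139 against 3.65, and Ugt2b34 with 44.2 against 0.41, beside Gstt1, Gsto1, Gsta4, Ces1e, and Cyp2d22. S3-like cells were few, between 21 and 174 per kidney, and most proximal tubule-like cells (44.5% to 80.2% per kidney) were assigned to neither segment.

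Closely related genes could differ in the segments and groups in which they were high. Cyp2a4, which hydroxylates testosterone, and Cyp2a5, which oxidizes coumarin and nicotine, differ in RefSeq by few bases around the start of transcription, and so the windows of 250 bases before and 50 bases after the start are shown for this pair and for Gsta1 and Gsta2. Each is given 5′ to 3′ on the strand of its gene in GRCm38.p6, and capitals mark bases that, within the aligned stretch, differ from the partner or have no counterpart in it. The Cyp2a windows matched at 294 of 299 aligned bases (98.3%), the Gsta windows at 232 of 289 (80.3%).
Cyp2a4, chr7:26306942-26307241, plus strand: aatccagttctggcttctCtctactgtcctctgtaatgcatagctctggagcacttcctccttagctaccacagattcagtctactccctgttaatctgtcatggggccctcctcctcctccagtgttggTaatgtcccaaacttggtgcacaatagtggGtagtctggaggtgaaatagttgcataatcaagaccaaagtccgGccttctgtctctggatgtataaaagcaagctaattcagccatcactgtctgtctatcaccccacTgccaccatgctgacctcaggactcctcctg
Cyp2a5, chr7:26835089-26835388, plus strand: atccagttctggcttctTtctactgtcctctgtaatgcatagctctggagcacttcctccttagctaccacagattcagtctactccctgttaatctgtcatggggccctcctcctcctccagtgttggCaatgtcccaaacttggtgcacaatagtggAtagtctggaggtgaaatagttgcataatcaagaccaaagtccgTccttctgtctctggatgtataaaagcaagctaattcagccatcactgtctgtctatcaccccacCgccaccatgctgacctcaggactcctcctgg
Gsta1, chr9:78230419-78230718, plus strand: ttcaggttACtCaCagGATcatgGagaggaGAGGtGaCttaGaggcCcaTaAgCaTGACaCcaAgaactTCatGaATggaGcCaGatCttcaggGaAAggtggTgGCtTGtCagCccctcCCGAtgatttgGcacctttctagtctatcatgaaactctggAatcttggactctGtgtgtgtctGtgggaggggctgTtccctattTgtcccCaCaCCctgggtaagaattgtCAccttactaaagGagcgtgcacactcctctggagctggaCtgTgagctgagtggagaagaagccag
Gsta2, chr9:78347096-78347395, minus strand: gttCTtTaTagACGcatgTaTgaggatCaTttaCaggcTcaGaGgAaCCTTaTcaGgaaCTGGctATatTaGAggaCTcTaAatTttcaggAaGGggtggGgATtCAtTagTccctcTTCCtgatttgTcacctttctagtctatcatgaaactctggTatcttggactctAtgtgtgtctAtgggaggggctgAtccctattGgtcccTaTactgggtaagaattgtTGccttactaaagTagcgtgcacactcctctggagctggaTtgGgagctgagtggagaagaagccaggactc

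Cyp2a4 in S3-like cells stood at 709 and 576 raw CPM in naive kidneys against 223 and 715 in rejecting and 545 and 627 in tolerized grafts, against a mean of 5.11 in S1/S2-like cells. The groups overlapped. Cyp2a5 in the same cells stood at 17.5 and 16.1 raw CPM in naive kidneys against 171 and 244 in rejecting and 232 and 288 in tolerized grafts, so that every graft was above both naive kidneys. Cyp2a4 was thus high in S3-like cells of all 3 groups and Cyp2a5 in those of the grafts. Gsta2 in S1/S2-like cells stood at 719 and 640.2 raw CPM in naive kidneys, 183 and 351 in rejecting grafts, then 321 and 414 in tolerized grafts, while Gsta1 stood at 2.37 and 1.9, 9.1 and 47.3, and 82.3 and 74.5. Each gene of the pair was on its own side: Gsta2 was highest in the naive kidneys and Gsta1 in the tolerized kidneys, without overlap with the naive kidneys in either.

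**Figure D2:**
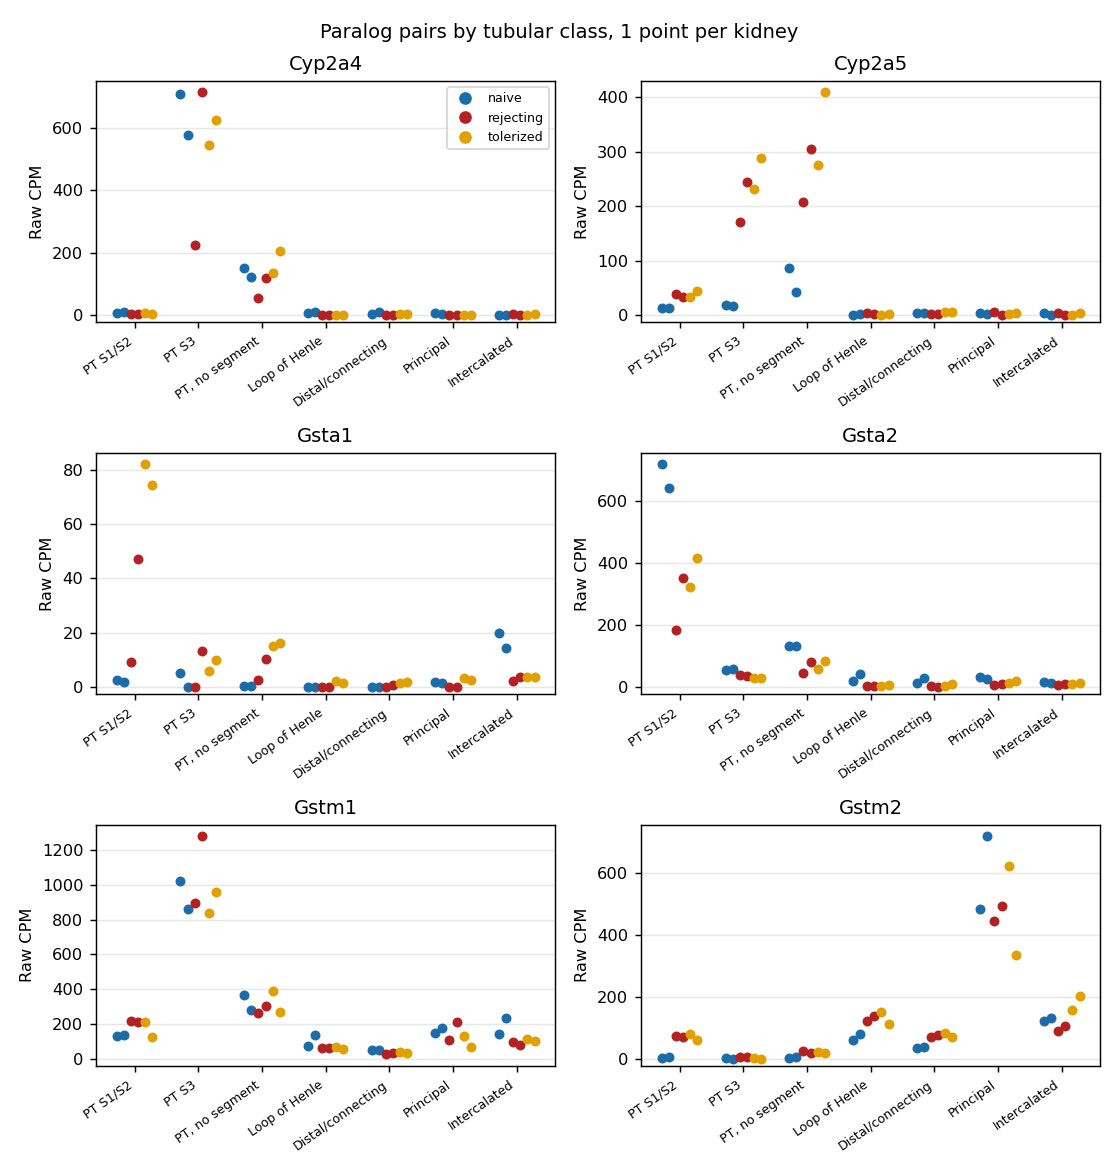
Raw CPM (y axis, linear, 1 scale per panel) of 3 pairs of related genes in 7 tubular classes, with 1 point per kidney coloured by group. Cyp2a4 stands out in S3 in every group, Cyp2a5 in the grafts, Gsta1 in S1/S2 of the grafts, Gsta2 in S1/S2, Gstm1 in S3, and Gstm2 in principal cells.

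Of stretches of 90 bases in the last 500 bases of their transcripts, 10.5% in Cyp2a4 and 10.1% in Cyp2a5 occur also in another gene, so most such stretches tell these genes apart. For Gsta1 that share was 77.9% and for Gsta2 30.9%, which leaves the level of Gsta1 uncertain. Among the 70 members, 49 shared no stretch and 5 shared at least 50%, namely Gsta1, Gstp1, Ugt1a6a, Ugt1a5, and Ugt1a2. The Ugt1a genes are known to use a common 3′ part, so that a method reading that end cannot tell them apart. Start windows were found for 58 of the 70 members, and the core of the xenobiotic response element (GCGTG, either strand) occurred in 18 of them (31%) and in 32.4% of all 32851 windows, while the core of the antioxidant response element (TGACNNNGC, either strand) occurred in 4 (6.9%) and in 12.4%. GCGTG was in the windows of Gsta1 and Gsta2 and in neither Cyp2a window shown.

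Beyond the proximal tubule, the members with the highest levels were mostly glutathione S-transferases. Gstm2 (chr3:107981702-107986453) in collecting duct principal-like cells stood at 485 and 721 raw CPM in naive kidneys against 444 and 494 in rejecting and 624 and 335 in tolerized grafts, with overlap of all groups. In the same cells, Gstt1 had a mean of 376 raw CPM and ranged from 286 to 455, and Gstt3 had a mean of 101 and was higher in both naive kidneys (143 and 173) than in the grafts (65.6 to 76.3). Cyp2j6 and Gsta4 were highest in distal convoluted and connecting tubule-like cells, with means of 118 and 109 raw CPM, and Gsto1 in loop of Henle-like cells with 62.3. Some low members had most of their UMIs in intercalated-like cells: Cyp1a1, which oxidizes aromatic hydrocarbons, had there 173 of its 188 UMIs in cells of named classes (92%), and Sult2a3 113 of 117 (96.6%). Both were chosen after their values were seen.

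In the comparison of naive with transplanted kidneys, levels in proximal tubule-like cells are given as CPM after TMM scaling, and group differences were tested with edgeR's quasi-likelihood fit on counts summed per kidney, at a false discovery rate (FDR) of 0.05 over all genes tested. TMM raised naive against rejecting levels by 0.44 and against tolerized levels by 0.25 on the log2 scale relative to raw CPM, and tolerized against rejecting levels by 0.19. Of 12694 genes tested, 41.96% were called between naive and rejecting kidneys, 19.1% higher and 22.9% lower in naive. Of the 70 members, 62 had enough counts to be tested and 36 were called (58.1% of those tested), 24 higher (38.7%) and 12 lower (19.4%) in the naive kidneys. Between naive and tolerized kidneys, 32.1% of all genes were called, 15.03% higher and 17.1% lower in naive, and 30 of the 62 members (48.4%), 19 higher (30.6%) and 11 lower (17.7%). The median log2 fold change of the tested members was 0.44 and 0.36 in the respective comparisons, beside -0.07 and -0.06 over all genes tested, and because a gene can pass the count filter through the group in which it is high, these counts describe the tested members alone. Both comparisons share the naive kidneys, and they called 19 members higher and 9 lower in naive alike.

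With library sizes not rescaled by TMM, a setting added after the data were seen, 35 members were called between naive and rejecting kidneys, 19 higher and 16 lower in naive, and 27 between naive and tolerized kidneys, 15 higher and 12 lower. Over all genes that setting called 1128 higher and 5131 lower in naive than in rejecting kidneys. In proximal tubule-like cells a list of 9 injured tubule markers summed to 400.4 and 389.7 raw CPM in naive kidneys and 1381 to 2658 in grafts, and 8 T cell markers to 0.86 and 1.18 against 13.4 to 173. Their part in the members' levels was not tested.

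Summed by family, all 5 families were highest in the naive kidneys on the TMM scale, and the Ugt family differed most. Its tested members summed to 1951 and 2001 CPM in naive kidneys, 659 and 898 in rejecting grafts, then 794 and 890.4 in tolerized grafts, a ratio of naive to graft means of 2.54 and 2.35. The Cyp family stood at 2398 and 2194 CPM in naive kidneys against 1383 and 1457 in rejecting and 1708 and 1878 in tolerized grafts, so that each group kept to its own range. For Ces genes the sums were 905 and 687, 497 and 388, and 578 and 445 CPM. Gst sums differed less, with 1816 and 1735, 1247 and 1428, and 1556 and 1459 CPM, and the Sult sums overlapped, since the second rejecting kidney (1043) exceeded the second naive kidney (1038).

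On raw CPM, naive kidneys remained above every graft for Ugt, with ratios of 1.88 to rejecting and 1.97 to tolerized means, and for Cyp, with 1.19 and 1.08. For Ces the raw ratios were 1.33 and 1.29, and naive kidneys (761 and 594 CPM) overlapped tolerized kidneys (622 and 425). For Gst the raw ratios were 0.981 and 0.986 and for Sult 0.923 and 0.972, with overlap, so that the higher naive sums of these families rest on the TMM scaling. A few genes made up each sum: the 3 highest members held 99.8% of the Sult sum, 90.1% of Ces, 82.5% of Ugt, 66.3% of Cyp, and 60.8% of Gst.

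**Figure D3:**
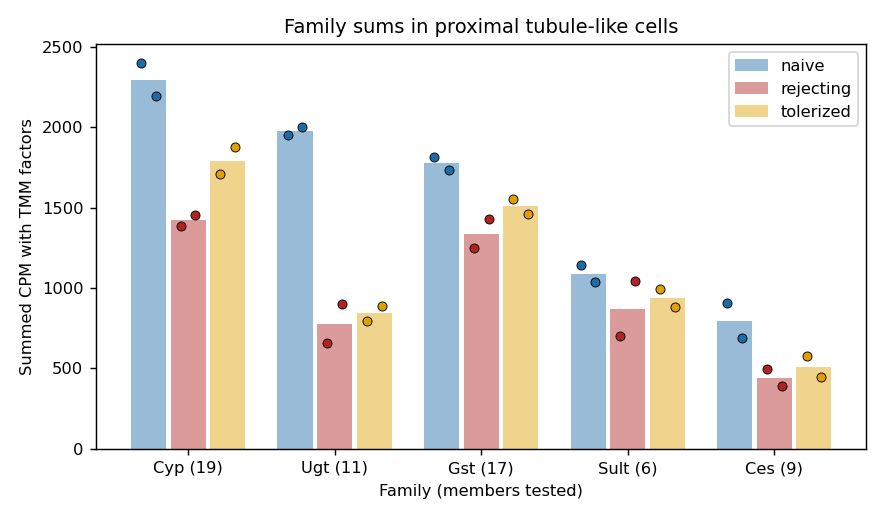
Summed CPM after TMM scaling (y axis, from 0) of the tested members of each family in proximal tubule-like cells. Bars are means of 2 kidneys, points are kidneys, colours are groups, and the number of members is in brackets. The naive Ugt points (1951 and 2001) lie far above those of the grafts (659 to 898), whereas the Sult points overlap.

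Among cytochromes P450, 8 of 19 tested members were higher and 3 lower in naive than in rejecting kidneys, and 6 were higher and 3 lower than in tolerized kidneys. Over all genes the shares were 19.1% higher and 22.9% lower, then 15.03% and 17.1%. Cyp2e1 (chr7:140763739-140774987), which oxidizes ethanol and other small molecules, stood at 743 and 815 CPM in naive kidneys, 241 and 213 in rejecting grafts, then 341 and 362 in tolerized grafts. The 3 groups did not overlap, with tolerized kidneys between the others. Its log2 fold change was 1.78 ± 0.17 (SE, FDR = 0.000183) between naive and rejecting and 1.15 ± 0.166 (FDR = 0.00176) between naive and tolerized kidneys. The difference was not seen in each segment: in S3-like cells alone Cyp2e1 stood at 118 and 114 raw CPM in naive and 148 to 219 in the grafts, and in S1/S2-like cells at 186 and 187 in naive and 74.2 to 108 in the grafts. After TMM scaling, its log2 fold change against rejecting kidneys in S3-like cells was -0.22 (FDR = 0.641), so no reversal was called there. Its mean over the 6 kidneys was 126 raw CPM in S1/S2-like, 159.5 in S3-like, and 428 in all proximal tubule-like cells. The higher levels thus lay in cells assigned to neither segment.

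Cyp2d9 stood at 128 and 58.6 CPM in naive kidneys against 9 and 8.11 in rejecting and 21.6 and 9.46 in tolerized grafts (log2 fold change 3.44, FDR = 0.00108, and 2.59, FDR = 0.00377). Both naive kidneys were above all grafts, although they differed from each other. Cyp2c23, an arachidonic acid epoxygenase, was lower in level but alike in pattern, at 21.2 and 15.9, 4.71 and 4.54, and 6.56 and 5.05 CPM (log2 fold change 2.00 and 1.68; it was chosen after its values were seen). Cyp2c69 was called in both comparisons at levels of 2.04 CPM and under, with log2 fold changes of 3.44 and 3.07, and lost both calls without the second naive kidney (FDR = 0.0512 and 0.0631), that against rejecting kidneys without the first of these (2.34, FDR = 0.0661), and that against tolerized kidneys without the first naive or first tolerized kidney (FDR = 0.0511 and 0.0525). Cyp2r1, the vitamin D hydroxylase, rested on 61 UMIs in the naive and 1 in the rejecting kidneys, a ratio of 36.7 with a counting interval of 6.35 to 1474. Its level was 1.17 times that of leukocytes in naive kidneys, but 0.0385 and 0.0241 of it in rejecting and tolerized kidneys. Graft leukocytes thus held more of it, and their level does not serve as its background.

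Cyp2j5 (chr4:96628773-96664154), the other epoxygenase and the Cyp member with the most UMIs, was not called in either comparison. It stood at 763 and 709 CPM in naive kidneys, 546 and 595 in rejecting grafts, then 586 and 531 in tolerized grafts (log2 fold change 0.37, FDR = 0.108, and 0.40, FDR = 0.0991), and on raw CPM its groups overlapped, at 642 and 614, 631 and 686, and 632 and 507. Cyp2j13, of the same subfamily, ranged from 94.5 to 188 CPM with overlap of naive and rejecting kidneys. Other P450 genes were lower in the naive kidneys. Cyp2a5 stood at 72 and 36.4 CPM in naive against 150 and 192 in rejecting and 196 and 208 in tolerized grafts (log2 fold change -1.66, FDR = 0.00344, and -1.90, FDR = 0.00258). Cyp2d22 stood at 5.75 and 4.46 against 16.6 and 14.6 and 16.5 and 13.2 CPM, so that Cyp2d9 and Cyp2d22, of the same subfamily, were called in opposite directions. Cyp2d26 was called only against tolerized kidneys (87.9 and 90.5 against 152 and 214 CPM, log2 fold change -1.04, FDR = 0.00507), and the rejecting kidneys (122 and 123) lay between.

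**Figure D4:**
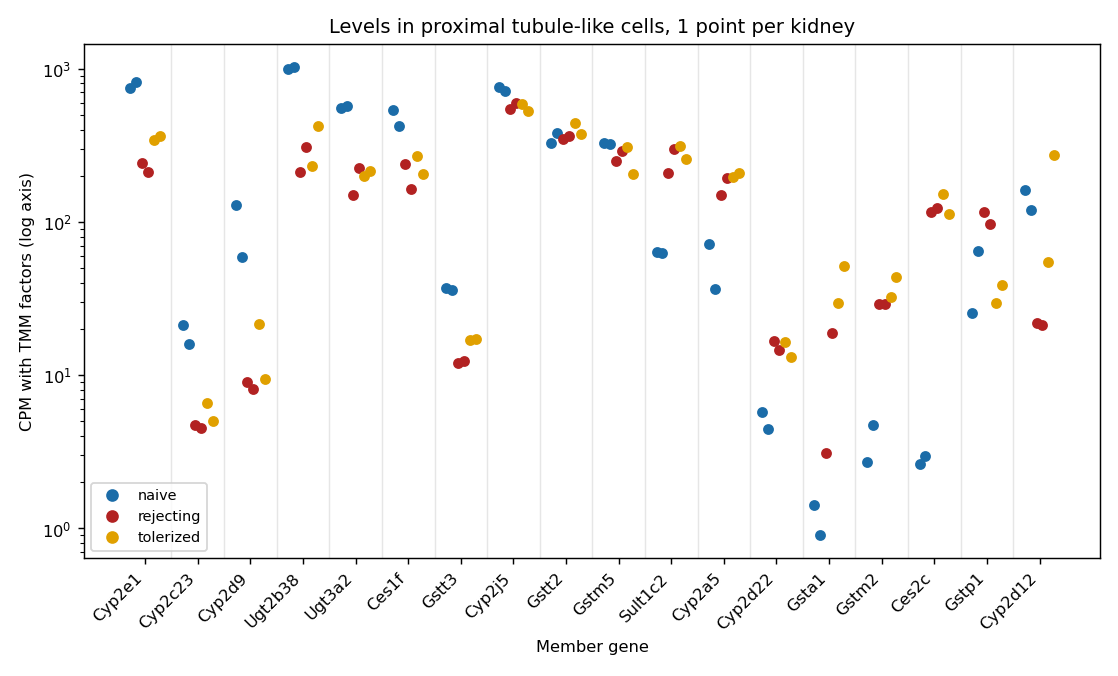
CPM after TMM scaling (y axis, log scale) of 18 members in proximal tubule-like cells, with 1 point per kidney and colours for naive, rejecting, and tolerized kidneys. Naive points lie above all grafts for Cyp2e1 through Gstt3, together or overlapping for Gstt2, and below all grafts for Sult1c2 through Ces2c. At the right, both rejecting kidneys are highest for Gstp1 and lowest for Cyp2d12.

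Called carboxylesterases of the Ces1 subfamily were higher in naive kidneys, whereas those of the Ces2 subfamily went both ways. Of 9 members, all tested, 6 were higher and 2 lower in naive than in rejecting kidneys, and 5 were higher and 2 lower than in tolerized kidneys. These counts stand beside 41.96% and 32.1% of all genes called. The 4 called Ces1 genes were higher in naive in both comparisons. Ces1f (chr8:93256236-93279747) stood at 537 and 420.4 CPM in naive kidneys against 239.9 and 165 in rejecting and 269 and 205 in tolerized grafts (log2 fold change 1.24, FDR = 0.00478, and 1.01, FDR = 0.0145). As for Cyp2e1, raw levels in S3-like cells alone went the other way, with 388 and 355 raw CPM in naive against 497 to 657 in the grafts. After TMM scaling the log2 fold changes there were smaller in size, at -0.43 and -0.39, and S3-like cells were few. Ces1d, a triglyceride hydrolase, stood at 211 and 182, 113 and 82.3, and 122 and 95.2 CPM, and Ces1e at 55.6 and 47.3, 18 and 9.95, and 19.8 and 22.3 CPM. Ces1g reached 81.3 CPM in the first and 7.71 in the second naive kidney and at most 1.71 in a graft (log2 fold change 5.10 ± 1.05, FDR = 0.00615, and 5.51 ± 0.988, FDR = 0.00463), and without the first naive kidney its log2 fold changes were 2.65 and 2.99 (FDR = 0.0175 and 0.0137).

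Ces2c (chr8:104847068-104854483) showed the opposite and differed more than any other member with over 3 UMIs in each group. It stood at 2.62 and 2.95 CPM in naive kidneys against 116 and 123 in rejecting and 152 and 113 in tolerized grafts. The log2 fold changes were -5.43 ± 0.232 (FDR = 3.01e-06) and -5.58 ± 0.233 (FDR = 3.61e-06). Both naive kidneys were far below each graft, and so they were in S1/S2-like cells (0.698 and 1.27 against 30.7 to 50 raw CPM) and in S3-like cells (0 and 7.13 against 329.8 to 542). Of stretches of 90 bases at its 3′ end, 22.4% occur also in the pseudogene Ces2d-ps. Ces2h was detected with 2 UMIs in naive, 22 in rejecting, and 52 in tolerized kidneys, ratios of 18.3 (4.49 to 160.3) and 13.2 (3.47 to 112). Ces2g was lower in rejecting than in naive kidneys (naive 4.15 and 3.02 against 0.647 and 0.246 CPM, log2 fold change of naive over rejecting 2.85, FDR = 0.00958), and the tolerized kidneys (1.24 and 3.46) overlapped the naive ones.

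Among glycosyltransferases, Ugt2b and Ugt3a genes had the highest naive levels, and 3 of 11 tested members were higher and 2 lower in naive in each comparison. These counts stand beside 41.96% and 32.1% of all genes called against rejecting and tolerized kidneys. Ugt2b38 (chr5:87409942-87424203), a glucuronosyltransferase, stood at 999 and 1018 CPM in naive kidneys, 212 and 307 in rejecting grafts, then 229.7 and 420.4 in tolerized grafts (log2 fold change 1.96 ± 0.303, FDR = 0.00176, and 1.63 ± 0.299, FDR = 0.00503). Ugt3a2 stood at 553 and 573, 150.1 and 224, and 199 and 216 CPM (log2 fold change 1.59, FDR = 0.000928, and 1.44, FDR = 0.00187). Its neighbour Ugt3a1, a transferase of sugars other than glucuronic acid like Ugt3a2, stood at 229 and 249, 68.1 and 74.4, and 139 and 74.1 CPM. For all 3 genes both naive kidneys were above every graft.

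Ugt2b37, a close relative of Ugt2b38 that lies on the same chromosome, went the other way against rejecting kidneys, with 89.9 and 81.5 CPM in naive kidneys against 139 and 206 in rejecting and 135 and 67.6 in tolerized grafts (log2 fold change -1.01, FDR = 0.0335, and a call lost without either naive kidney or the second rejecting kidney). It was an S3 gene, and in S1/S2-like cells alone its log2 fold change was 0.34 (FDR = 0.55). Ugt8a overlapped between the groups at 55.7 and 61, 65.5 and 52.8, and 66.1 and 45.7 CPM. Ugt1a7c was lower in naive kidneys, at 4.15 and 2.57 CPM against 8.59 to 11.3 in the grafts, within the limit on telling Ugt1a genes apart.

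Among glutathione S-transferases, 4 of the 5 genes with the highest mean level were not called. Gstt2 (chr10:75831114-75837424) stood at 327 and 377 CPM in naive kidneys, 347 and 360.4 in rejecting grafts, then 443 and 375 in tolerized grafts. Gstm5 stood at 326 and 321, 249.6 and 289, and 307 and 206 CPM, and Gstm1 at 353 and 297, 237 and 267, and 339.9 and 201. Naive kidneys lay above every graft for Gstm5 and above both rejecting kidneys for Gstm1, whereas Gsta3 overlapped between 101 and 152 CPM. Against these, 4 of 17 tested members were higher and 3 lower in naive than in rejecting kidneys, and 3 were higher and 2 lower than in tolerized kidneys. Of all genes, 41.96% and 32.1% were called in these comparisons, so the Gst counts lay near the share over all genes.

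The theta class member Gstt3 stood at 37.1 and 35.7 CPM in naive kidneys against 12 and 12.3 in rejecting and 16.9 and 17.3 in tolerized grafts, with little spread within a group (log2 fold change 1.58 ± 0.158, FDR = 0.000232, and 1.09 ± 0.15, FDR = 0.00138). Gsta2 stood at 395 and 330.1, 62.6 and 138, and 115 and 283 CPM (log2 fold change 1.86, FDR = 0.0126, against rejecting and 0.86, FDR = 0.169, against tolerized kidneys), and the call was lost without the first naive or the first rejecting kidney. In the other direction, Gstm2 stood at 2.73 and 4.76 CPM in naive kidneys, 29.1 and 29 in rejecting grafts, then 32.2 and 44 in tolerized grafts (log2 fold change -2.97 ± 0.282, FDR = 0.000178, and -3.37 ± 0.281, FDR = 0.000106). Gstm2, a gene of the collecting duct in all 6 kidneys, was thus found in proximal tubule-like cells of the grafts as well, and by S1/S2-like cells alone the raw CPM was 2.65 and 4.22 in naive against 60.3 to 80.1 in the grafts. In S1/S2-like cells the principal cell markers summed to 97.3 and 121 raw CPM in naive and 17.8 to 60 in graft kidneys, lower in the grafts. Gsta1 stood at 1.42 and 0.908, 3.12 and 18.7, and 29.5 and 51.6 CPM (log2 fold change -3.10, FDR = 0.0166, and -5.08, FDR = 0.00238), and without the second rejecting kidney the former was -1.38 (FDR = 0.0635).

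In the sulfotransferases, Sult1d1 (chr5:87554645-87569027), which sulfates catecholamines, stood at 1069.8 and 968 CPM in naive kidneys against 486 and 736 in rejecting and 675 and 619 in tolerized grafts (log2 fold change 0.74, FDR = 0.0275, and 0.66, FDR = 0.0518). The call against rejecting kidneys did not hold without TMM (0.30, FDR = 0.333), nor without either naive kidney or the first rejecting kidney (FDR = 0.129, 0.0829, and 0.106). Sult1c2 (chr17:53829637-53846339) was lower in naive kidneys, at 63.2 and 62.3 CPM against 207 and 300 in rejecting and 313 and 256 in tolerized grafts, with every graft above both naive kidneys. Its log2 fold changes were -2.01 ± 0.218 (FDR = 0.000351) and -2.18 ± 0.219 (FDR = 0.000278). Sult4a1, mainly known from brain, had 0 UMIs in naive proximal tubule-like cells, 62 in rejecting and 74 in tolerized ones, at least 34.3-fold and 12.5-fold higher than a floor of 3 UMIs over the naive group (0.0829 raw CPM). By kidney, the rejecting grafts (2.58 and 3.4 raw CPM) were at least 31.1-fold and 41-fold above that floor, the first tolerized graft (1.79) 21.6-fold, and the second (0.303) 3.66-fold. Sult1b1 and Sult1a1 were called higher in naive in both comparisons at levels of 7.39 and 1.08 CPM and under, and lost the call when any 1 of the kidneys compared was left out. The level of Sult1a1 was 0.114 of that in leukocytes in naive kidneys, 0.0326 in rejecting, and 0.0334 in tolerized kidneys. Leukocytes thus held more of it, and their level does not serve as its background.

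**Figure D5:**
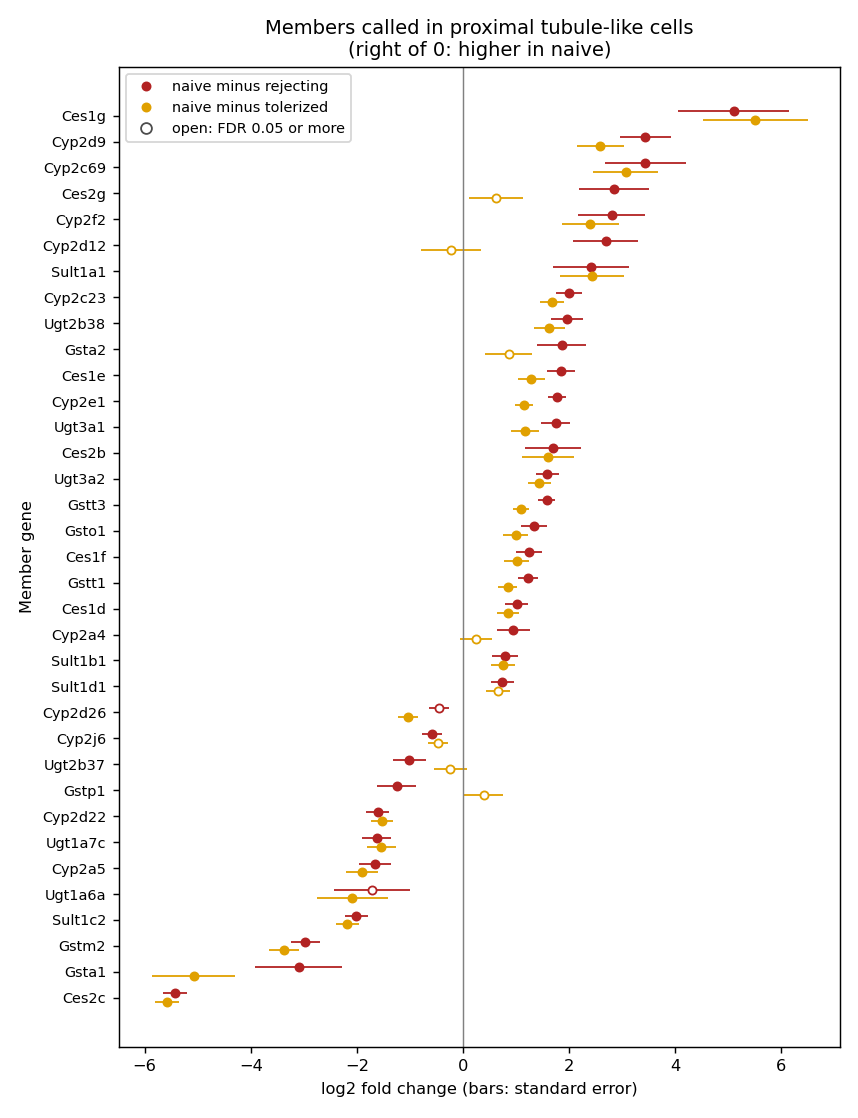
Log2 fold changes (x axis, with standard errors as bars) of members called in proximal tubule-like cells, naive minus rejecting in red and naive minus tolerized in yellow, open where the FDR was 0.05 or more. Genes right of 0 were higher in naive kidneys. Ces1g lies farthest right and Ces2c farthest left, and genes with 3 or fewer UMIs in a group are left out.

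The other called members were Cyp2f2, Ces2b, Gstt1, and Gsto1, higher in naive in both comparisons with log2 fold changes of 0.84 to 2.80, Cyp2a4 and Cyp2d12, higher only against rejecting kidneys (0.95 and 2.69), Cyp2j6, lower only against rejecting kidneys (-0.59), Gstp1 (-1.25), lower likewise, and Ugt1a6a, lower only against tolerized kidneys (-2.09). Neither comparison called 24 tested members. The 8 members not tested, Gsto2, Cyp1a1, Cyp2ab1, Sult2a3, Cyp1b1, Ugt1a5, Cyp3a13, and Sult5a1, had 1 to 45 UMIs in proximal tubule-like cells. Of the called members, Gsto1 (0.742 of the leukocyte level in naive kidneys, 0.563 in rejecting, and 0.557 in tolerized kidneys) and Sult1a1 were at or below the leukocyte level in their higher group in both comparisons. In their higher groups Cyp2r1 (1.17), Gstp1 (1.36), Ces2g (1.5), and Ugt1a6a (1.74) were little above it. Sult1b1, Cyp2c23, Cyp2c69, and Cyp2f2 were among those without a ratio in naive kidneys, and the others with a ratio were further above it.

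These comparisons depend on which proximal tubule-like cells were counted. In S3-like cells alone 9 of 24 tested members were called between naive and rejecting and 8 between naive and tolerized kidneys, beside 13% and 12.3% of 4422 genes. In cells with at most 20% mitochondrial UMIs the naive against tolerized fold changes of Cyp2e1 (0.52), Ugt2b38 (0.79), Ugt3a1 (0.49), Ces1f (0.38), and Ces1d (0.38) no longer passed, whereas those of Ces2c (-6.18), Gstm2 (-3.07), Sult1c2 (-1.95), and Cyp2a5 (-2.64) did. Against rejecting kidneys, Ces2g (1.64, FDR = 0.0649) and Sult1b1 (0.72, FDR = 0.0693) no longer passed there. Without TMM, Ces1d (0.57, FDR = 0.0723, and 0.59, FDR = 0.0788) and Sult1b1 (0.36, FDR = 0.273, and 0.50, FDR = 0.135) passed in neither comparison, and Ces1f (0.74, FDR = 0.0521) did not against tolerized kidneys. Leaving out 1 kidney ended further calls at folds that mostly stayed of like size. Against rejecting kidneys, Gsta1 lost its call without the first (-3.48, FDR = 0.0729) or second naive kidney (-2.84, FDR = 0.0925), and Ces2g (2.63, FDR = 0.0528) and Ces2h (-3.48, FDR = 0.0683) without the first. Against tolerized kidneys, calls were lost without the first naive kidney for Ces1f (0.83, FDR = 0.099), Ces1d (0.75, FDR = 0.104), Ugt3a1 (1.24, FDR = 0.0526), Cyp2d26 (-1.01, FDR = 0.0504), Ces2h (-3.14, FDR = 0.11), and Sult4a1 (FDR = 0.0945). Without the second naive kidney those of Ces1d (FDR = 0.0584), Ugt3a1 (0.0766), Ces2h (0.0802), and Sult4a1 (0.079) did not pass, without the first tolerized kidney those of Ces2h (0.0658) and Sult4a1 (0.0506), and without the second those of Ces1f (0.0771) and Ces1d (0.0872).

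Between tolerized and rejecting kidneys, both BALB/c grafts of like age, no member and no other gene was called in proximal tubule-like cells by edgeR (0% of 12694 genes, with 1439 genes at an unadjusted p under 0.05). Of the tested members, 11 had an unadjusted p under 0.05, and DESeq2 called 3 (Cyp2d12, Cyp2e1, and Gstp1) beside 212 genes in all. Gstp1 (chr19:4035407-4037985), the pi class transferase, stood at 116 and 96.5 CPM in rejecting and 29.5 and 38.6 in tolerized kidneys, with naive kidneys at 25.5 and 64.4 (tolerized minus rejecting -1.64 ± 0.374, FDR = 0.201). Both rejecting kidneys were above all others. Gstp1 stood at 101 and 79 raw CPM in leukocytes of rejecting and 21.5 and 36.2 in those of tolerized kidneys, so the same order appeared there, and of stretches at its 3′ end 69.5% occur also in Gstp2 or Gstp-ps.

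Cyp2d12 (chr15:82555072-82560403) stood at 22 and 21.4 CPM in rejecting and 54.7 and 272 in tolerized kidneys, with naive kidneys at 161 and 119.7 (tolerized minus rejecting 2.91 ± 0.62, FDR = 0.201). Both rejecting kidneys were lowest, and the tolerized kidneys differed widely from each other. It is an S1/S2 gene, and S1/S2-like cells were 17.7% and 33.1% of proximal tubule-like cells in rejecting and 30.5% and 54.7% in tolerized kidneys. Within S1/S2-like cells it stood at 47.2 and 31.7 raw CPM in rejecting and 103 and 342 in tolerized kidneys and was called (log2 fold change 2.71, FDR = 0.0319), as it was without the first tolerized kidney (3.66, FDR = 0.00328), whereas without the second the difference fell to 1.34 (FDR = 0.372). Gsta1 did not pass (1.99, FDR = 0.272), with 3.71 (FDR = 0.0237) without the second and 1.12 (FDR = 0.686) without the first rejecting kidney. The differences of Cyp2e1 (0.63, FDR = 0.217) and Gstt3 (0.49, FDR = 0.264) were small, and their kidneys did not overlap. Ces2g (2.23, FDR = 0.24), Sult2b1 (-2.03, FDR = 0.347), Ugt2b37 (-0.77, FDR = 0.405), Gstp3 (-1.21, FDR = 0.543), and Sult4a1 (-1.36, FDR = 0.566) did not pass.

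In the other tubular classes, most called members were proximal tubule genes at or below their leukocyte level. In loop of Henle-like cells 16 of 29 tested members were called between naive and rejecting kidneys and 15 between naive and tolerized kidneys, beside 17.8% and 11.8% of 9690 genes. In distal convoluted and connecting tubule-like cells 22 and 17 of 38 were called, beside 22.8% and 15.8% of 10254 genes, and in collecting duct-like cells 14 and 14 of 36, beside 20.2% and 16.9% of 10983. Among these, 11 of 16, 10 of 15, 15 of 22, 10 of 17, 9 of 14, and 8 of 14 called members were at or below the leukocyte level in their higher group, with Cyp2e1, Cyp2j5, Ugt2b38, Ugt3a1, and Ces1f in each class. With at most 20% mitochondrial UMIs the counts fell to 4 and 1, 12 and 9, and 7 and 10, and without the second naive kidney to 7 and 2, 15 and 8, and 8 and 10.

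Above the leukocyte level, Gstt3 was higher in naive kidneys in each of these classes, within the limit of stretches shared with Gm20441. In collecting duct-like cells it stood at 128 and 163 CPM in naive kidneys, 50.5 and 64.8 in rejecting grafts, then 65.4 and 75.4 in tolerized grafts (log2 fold change 1.32, FDR = 0.00184, and 1.04, FDR = 0.00476), and in loop of Henle-like cells at 70.8 and 78.4, 31.9 and 38.1, and 37.9 and 34.3 CPM. Gstm2 was lower in naive in the loop of Henle-like (log2 fold change -0.78 and -0.83) and distal cells (36.1 and 39.2 against 67.7 to 75.1 CPM), but not in collecting duct-like cells (392 and 658 against 273 to 490.3 CPM, log2 fold change 0.72, FDR = 0.0979, and 0.34, FDR = 0.437). Sult1c2 too was lower in naive in loop of Henle-like (-1.66 and -1.77) and distal cells (-0.87 and -1.05). Sult1a1, a phenol sulfotransferase, was higher in naive distal cells at 39.1 and 55.7 CPM against 10.1 and 27.1 and 9.64 and 19.4 (log2 fold change 1.34, FDR = 0.0393, and 1.66, FDR = 0.014), and Gsta4, which conjugates products of lipid peroxidation, only against rejecting kidneys (157 and 133 against 73.5 and 90.8 CPM, FDR = 0.00901). In collecting duct-like cells Gsta3 and Ces1d were also higher in naive in both comparisons, Cyp2u1 higher and Cyp2j11 lower only against tolerized kidneys, and Cyp1a1 lower only against rejecting kidneys. Of the Cyp1a1 UMIs in named classes, 92% were in intercalated-like cells. These cells were 21.2% and 8.66% of collecting duct-like cells in naive and 48.4% and 32.7% in rejecting kidneys, and their part in the Cyp1a1 call was not tested. Whether effects differ between classes was not tested.

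Ugt8a, the ceramide galactosyltransferase, was called in opposite directions along the nephron. In loop of Henle-like cells it stood at 19.1 and 22.8 CPM in naive kidneys against 36 and 37 in rejecting and 38.1 and 45.7 in tolerized grafts, and in distal convoluted and connecting tubule-like cells at 1.64 and 3.88, 11.2 and 14.7, and 11.1 and 13.5 CPM. In collecting duct-like cells it stood at 25.7 and 45.5, 10.1 and 12.5, and 15 and 16.3 CPM. Naive kidneys were thus below every graft in the former classes and above every graft in the last. In loop of Henle-like cells the log2 fold changes were -0.83 (FDR = 0.0476, just under the threshold) and -1.03 (FDR = 0.0185). They were -2.31 and -2.25 in distal cells, and 1.61 (FDR = 0.0078) and 1.16 (FDR = 0.0151) in collecting duct-like cells. In these classes too, naive and graft cells lay mostly in different clusters, with 7, 17, and 12 graft cells in the mostly naive loop of Henle-like, distal, and collecting duct-like clusters. Intercalated-like cells were 21.2% and 8.66% of collecting duct-like cells in naive kidneys against 48.4% and 32.7% in rejecting and 22.2% and 15.2% in tolerized grafts. In principal-like cells alone Ugt8a stood at 32.4 and 50.6 raw CPM in naive kidneys and 16.2 to 19.9 in the grafts.

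Between tolerized and rejecting kidneys, 1 member was called in a class other than the proximal tubule. Gstp1 in loop of Henle-like cells stood at 103 and 72.5 CPM in rejecting and 22 and 25.6 in tolerized kidneys (log2 fold change -1.87 ± 0.342, FDR = 0.0251), beside 0.671% of genes called, and the call was lost with DESeq2 and without the first rejecting or either tolerized kidney. In distal (102 and 63.8 against 16.1 and 29.3 CPM, FDR = 0.131) and collecting duct-like cells (91.7 and 79 against 24.3 and 33.6 CPM, FDR = 0.19) the kidneys did not overlap either, in classes where 0.0390% and 0.00910% of genes were called. All these levels of Gstp1 lay near those of leukocytes in the same kidneys.

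Enzymes that supply or assist these families were counted from a list of 51 genes, of which 45 were tested in proximal tubule-like cells. Between naive and rejecting kidneys 17 were higher and 7 lower in naive, and between naive and tolerized kidneys 13 and 7. Of all genes tested, 19.1% were higher and 22.9% lower in naive in the former comparison, and 15.03% and 17.1% in the latter. Of 4 listed electron donors, 3 and 2 were higher in naive and none was lower. Por, the P450 reductase, was called in neither comparison (FDR = 0.117 and 0.718). It stood at 138 and 119 CPM in naive kidneys, 100.3 and 97.4 in rejecting grafts, then 136 and 106 in tolerized grafts. Cyb5a, a cytochrome that passes electrons to P450 enzymes, stood at 3165 and 2563 CPM in naive against 1259 to 1485 in the grafts (log2 fold change 1.16, FDR = 0.00236, and 1.01, FDR = 0.00574). It was not among the largest folds of the list. Among 8 genes that supply cosubstrates, 4 and 2 were higher and 0 and 1 lower.

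Other oxidizing and hydrolyzing enzymes went both ways, with 6 higher and 3 lower of 14 against rejecting and 6 higher and 4 lower against tolerized kidneys. Fmo4, a flavin-containing monooxygenase, stood at 21 and 18.5 CPM in naive and 1.65 to 3.12 in the grafts (log2 fold change 3.51, FDR = 5.2e-05, and 2.86, FDR = 8.06e-05), and Adh1, an alcohol dehydrogenase, at 251 and 266 against 44.3 to 61.5. Fmo5 stood at 98.9 and 64.7 CPM against 16 to 26. Lower in naive were Cbr1, a carbonyl reductase, at 33.4 and 40 against 111 to 278 CPM (log2 fold change -2.29, FDR = 0.00441, and -2.48, FDR = 0.00434), and Fmo2, at 107 and 93.6 against 218 to 379 CPM. Ephx1, an epoxide hydrolase (-2.23, FDR = 0.0422), and Mgst2, which had at most 0.151 CPM in naive kidneys (FDR = 0.0266), passed only against rejecting kidneys. Of 9 regulators tested, Keap1 and Ppara were lower in naive than in rejecting kidneys, Ppara alone also against tolerized kidneys (20.8 and 9.15 against 33.5 to 44.8 CPM), and none was higher. No listed gene was called between tolerized and rejecting kidneys.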

How the data were processed

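The authors deposited raw counts of UMIs for each gene in each barcode, made with Cell Ranger on reads aligned to mm10, without normalization. Barcodes needed 500 or more UMIs, 250 or more genes, and no more than 50% mitochondrial UMIs, and the highest Scrublet scores were removed as doublets (0.8% per 1000 barcodes). Clustering used 2500 variable genes without members, 40 principal components, 20 neighbors, and Leiden at a resolution of 1.5 (scanpy 1.11.5, leidenalg 0.10.2, igraph 0.11.9). Classes needed at least 3 markers. Sums of counts over each kidney's cells of a class passed filterByExpr and were tested in 1 fit of all 6 kidneys with edgeR 4.0.16 (R 4.3.3) and Benjamini-Hochberg adjustment over all genes tested. DESeq2 1.42.0 was an alternative. The test was checked on simulated counts. Counting intervals and floors cover counting error only. Gene coordinates are those of GRCm38, GENCODE release M21.

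Named members are the 5 highest per family, the 5 with the largest fold change in each direction and comparison among those past the FDR without overlap (otherwise by unadjusted p), 6 highest outside the proximal tubule, and 3 listed partner genes per direction. Members, lists, and tests were chosen with earlier results of these data known. The paper gives its sequenced kidneys an experiment number, and the labels do not link it to the replicate number. Deviations of same-numbered kidneys were only weakly correlated (-0.118, -0.109, and 0.117), which cannot show that the kidneys were unpaired. The main fit used no block, and counts with a block are given below.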

Additional observations from a re-analysis of the deposited data

Results flagged for a closer look

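Ugt8a, the ceramide galactosyltransferase, was called in opposite directions in tubular classes of the same kidneys, with every naive kidney on 1 side of every graft in each class. For naive minus rejecting kidneys, its log2 fold change in loop of Henle-like cells less that in collecting duct-like cells was -2.44, and that in distal convoluted and connecting tubule-like cells less that in collecting duct-like cells was -3.92. For naive minus tolerized kidneys the corresponding values were -2.19 and -3.41. In loop of Henle-like cells the call against rejecting kidneys was just under the threshold (FDR = 0.0476). The difference between classes itself was not tested, and both comparisons share the naive kidneys.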

How the results depend on the processing

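Counts of called members are given in the order naive against rejecting, naive against tolerized, and tolerized against rejecting kidneys. In proximal tubule-like cells (36, 30, and 0) they were 36, 32, and 3 with DESeq2, 40, 34, and 10 with no filter on low counts, 28, 31, and 1 in S1/S2-like cells alone, and 9, 8, and 1 in S3-like cells alone, where far fewer genes were tested (4422), and leaving out 1 kidney gave 25 to 38, 20 to 30, and 0 to 2 (2 without the second rejecting, 1 without the first tolerized kidney). In loop of Henle-like cells (16, 15, and 1) DESeq2 gave 11, 9, and 0, at most 20% mitochondrial UMIs 4, 1, and 0, and leaving out 1 kidney 7 to 14, 2 to 16, and 0 to 1. In distal convoluted and connecting tubule-like cells (22, 17, and 0) at most 20% mitochondrial UMIs gave 12, 9, and 0, no filter gave 27, 23, and 6, and leaving out 1 kidney 15 to 22, 8 to 19, and 0 to 1. In collecting duct-like cells (14, 14, and 0) at most 20% mitochondrial UMIs gave 7, 10, and 0, no filter gave 21, 24, and 3, and leaving out 1 kidney 8 to 15, 8 to 22, and 0 to 2. Over all genes, 33%, 31.6%, and 0.288% were called in S1/S2-like cells alone and 13%, 12.3%, and 0.226% in S3-like cells alone. The cause of these shifts was not tested. With the replicate number as a block, though the labels do not say that it pairs the kidneys, counts were 36, 29, and 0 in proximal tubule-like, 15, 16, and 1 in loop of Henle-like, 23, 17, and 0 in distal, and 14, 14, and 0 in collecting duct-like cells. Without the cluster of low UMI counts, an alternative added after the data were seen, the proximal tubule counts were 36, 31, and 0. The number of members highest in the proximal tubule, of the 4 tubular classes, stayed at 50 to 52. Fold changes turned in S3-like cells alone for Cyp2e1 (-0.22 against rejecting and -0.66 against tolerized kidneys), Ces1f (-0.43 and -0.39), and Ugt2b38 (-0.44 against tolerized kidneys), and in S1/S2-like cells alone for Ugt2b37 (0.34 against rejecting kidneys), and the cause was not tested. Over 55 pairs of a named member and a comparison, 1000 values under alternatives comprised 908 with the same direction and side of the threshold, 73 that no longer passed, 13 that newly passed, and 6 that turned. Over all genes, the tolerized against rejecting count of 0 became 212 with DESeq2, 840 with no filter, 128 without the second rejecting kidney, 57 without the first tolerized kidney, 32 in S1/S2-like, and 10 in S3-like cells alone.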

Other observations

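A few members were counted mainly outside the tubule. Shares here are of UMIs in cells of named classes. Gstp3 had 2080 of 2367 such UMIs (87.9%) in T cell-like cells, where it stood at 15.8 and 10.9 raw CPM in naive kidneys against 45.4 and 90.7 in rejecting and 93.5 and 79.1 in tolerized grafts. The naive levels rest on 1 UMI each, in 31 and 40 cells. Cyp2ab1 had 204 of 205 UMIs (99.5%) in macrophage- or monocyte-like cells. Cyp1b1, which oxidizes aromatic hydrocarbons and estradiol, had 50 of 75 UMIs (66.7%) in stroma-like cells.

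Endothelium-like cells held 407 of 1031 Ces2e UMIs (39.5%) and 216 of 539 Ces2g UMIs (40.1%). Ces2g stood there at 41.3 and 47.5 raw CPM in naive kidneys against 15.9 and 11.4 in rejecting and 41.9 and 44.1 in tolerized grafts, so that both rejecting kidneys were below all others. The rejecting levels rest on 120 and 47 cells with 754489 and 352370 UMIs of all genes, and so on few UMIs of Ces2g. Ces2e stood at 67.5 and 96.2, 53 and 25.5, and 90 and 58.3 raw CPM, with both rejecting kidneys again lowest. Sult1a1 overlapped in these cells, between 26.2 and 68.1 raw CPM. These genes were chosen after their values were seen, and no test was made in these classes.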
